A study of Homo sapiens with 3 samples.

Results

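The cells described here were Caco-2-line cells that carried RNA for fetal liver plasma proteins, referred to as fetal-liver-gene cells. They were chosen from the measured counts. A cell had to hold fewer than 0.1% of its unique molecular identifiers (UMIs, the tags that count single RNA molecules) on 8 genes of the HT29 line (LYZ, KRT20, LCN2, CD24, CD44, CST6, TCN1 and BMP4) and at least 0.2% on 5 genes together: ALB, AFP, FGG, FGB and APOH. Of 15560 kept cells, 1012 met this rule. The comparison cells were the other 11722 cells under the same 0.1% limit. The 13 genes of the rule are given as description and were not tested.

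The data came from single-cell RNA sequencing of a coculture of 2 human colorectal carcinoma lines, Caco-2 and HT29, seeded together at 9 to 1 in the apical chamber of 3 Transwells, which are cups with a permeable membrane. Caco-2 (passage 8) is known for turning into absorptive, enterocyte-like cells when kept confluent, and HT29 (passage 13) for containing mucus-producing cells. All Transwells were grown for 21 days in DMEM with Glutamax and 10% FBS and harvested on day 23. The 2 control Transwells received no LPS, and the third received 1 ng/ml Escherichia coli O111:B4 lipopolysaccharide (LPS) apically on day 22 for 24 hours. Each Transwell gave 1 library, and all were seeded from the same passage of each line, and the labels name no separate cultures, so p-values measure only the spread between these Transwells, which may be technical. The kept cells held 33153151 UMIs in control 1, 26753359 in control 2 and 22421217 in the LPS library, with medians of 5496, 4196 and 3676 UMIs per cell.

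Albumin and alpha-fetoprotein are related carrier proteins of blood plasma, encoded side by side on chromosome 4. Both are made by the fetal liver and yolk sac, and AFP is largely switched off after birth. FGG and FGB encode the gamma and beta chains of fibrinogen, the clotting protein, and APOH encodes beta-2-glycoprotein I. Factors shared by the liver and the gut lining, among them HNF1 and HNF4, bind the promoters of many such genes, and LGR5, SMOC2 and ASCL2 are known as markers of the crypt stem cell that renews the intestinal lining under Wnt signaling.

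The stretches before the annotated starts of 4 of the 5 genes are shown because these genes chose the cells together and hold a match to the core letters of the HNF1 site. Bases -250 to -33 before the RefSeq start (GRCh38.p14) are given 5′ to 3′ on the strand of the gene, with the letters GTTAAT or, on the other strand, ATTAAC in capitals. ALB lies on the plus strand at chr4:73404037-73404254, AFP on the plus strand at chr4:73435971-73436188, FGB on the plus strand at chr4:154562730-154562947 and APOH on the minus strand at chr17:66229448-66229665. None of the 4 stretches overlapped an exon of GENCODE v44, although those of ALB, AFP and APOH lay within the wider GENCODE gene.
ALB: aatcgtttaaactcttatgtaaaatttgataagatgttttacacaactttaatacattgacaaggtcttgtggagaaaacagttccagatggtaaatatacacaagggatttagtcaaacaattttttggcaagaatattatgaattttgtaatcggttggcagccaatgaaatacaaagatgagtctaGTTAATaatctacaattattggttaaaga
AFP: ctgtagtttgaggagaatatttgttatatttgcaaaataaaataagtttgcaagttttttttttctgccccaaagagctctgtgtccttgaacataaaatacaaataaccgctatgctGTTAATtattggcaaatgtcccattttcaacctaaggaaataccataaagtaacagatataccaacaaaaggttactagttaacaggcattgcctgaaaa
FGB: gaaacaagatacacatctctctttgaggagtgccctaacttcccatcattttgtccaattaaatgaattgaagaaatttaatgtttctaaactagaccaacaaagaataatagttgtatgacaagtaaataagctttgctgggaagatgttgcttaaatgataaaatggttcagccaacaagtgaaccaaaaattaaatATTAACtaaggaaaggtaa
APOH: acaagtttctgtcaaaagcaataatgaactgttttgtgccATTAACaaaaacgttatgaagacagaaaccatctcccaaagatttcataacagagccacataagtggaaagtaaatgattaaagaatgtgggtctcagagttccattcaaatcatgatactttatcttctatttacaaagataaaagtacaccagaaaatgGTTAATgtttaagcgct
The match began at position -61 in ALB, -132 in AFP, -51 in FGB and -210 in APOH, which held 2 matches. The window of FGG held no match to these letters, and all 218 of its bases, unlike those of the 4 shown, overlapped an FGG exon of GENCODE. Of all 27305 genes with a RefSeq promoter window of this length, 6.90% held one on either strand, and among the 29 plasma protein genes that were higher in the chosen cells (below), 19 had a window and 3 of them held a match. These matches describe the letters and not binding.

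Fetal-liver-gene cells were 372 of 5093 kept cells in control 1 (7.30%, exact binomial 95% interval 6.60 to 8.05), 307 of 5307 in control 2 (5.78%, 5.17 to 6.45) and 333 of 5160 in the LPS library (6.45%, 5.80 to 7.16). The LPS share lay between the 2 controls, whose mean was 6.54% ± 1.07 (SD, n = 2), and the difference was not tested. The order depended on the limit, since at 0.1% the shares were 14.2%, 11.4% and 11.2%, with LPS below both controls, and at 0.4% they were 3.38%, 2.56% and 3.80%, with LPS above both. Intervals cover counting error only. Depth per cell was close to that of the comparison cells, with medians of 5596.5 against 5468 UMIs in control 1, 4534 against 4249 in control 2 and 3792 against 3636 in the LPS library.

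The cells carried the signature of the Caco-2 line. A list of 754 Caco-2 genes took 38.7%, 39.5% and 39.2% of their UMIs in control 1, control 2 and the LPS library, against 39.5%, 39.7% and 39.7% in the comparison cells and 29.7%, 29.6% and 30.2% in the cells at or above the HT29-line limit. Few of the cells richest in HT29-line RNA, which can show free RNA in the droplets, met the limit for the 5 genes. Of 395 cells with 0.5% or more of their UMIs on the 8 HT29-line genes, 1 passed the 0.2% limit (0.253%, exact binomial 95% interval 0.00641 to 1.40), at median depths of 5385, 3730 and 3281 UMIs. The 5 genes took 0.00803%, 0.00723% and 0.00934% of UMIs in those HT29-line cells, against 0.647%, 0.637% and 0.810% in fetal-liver-gene cells. APOH made up most of the HT29-line value, at 76.2, 64.5 and 56.4 UMIs per 1000000. Among all 2826 cells at or above the HT29-line limit, the highest shares on the 5 genes were 0.674%, 0.774% and 1.32%, above 0.2% in each library. ALB stood there at 47.0, 36.6 and 45.2 UMIs per 1000000, against 40.5, 52.2 and 29.7 in comparison cells. AFP stood at 66.2, 39.2 and 44.7 against 138, 88.4 and 91.6.

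The levels of the 5 genes were as follows, in counts per 1000000 UMIs (CPM) after adding up all cells of one class in a library, in the order control 1, control 2 and LPS. ALB stood at 3009.9, 3458 and 4001 in fetal-liver-gene cells and at 40.5, 52.2 and 29.7 in the comparison cells. AFP stood at 2724, 2093 and 3554 against 138, 88.4 and 91.6. These 2 genes therefore gave most of the summed share. FGG was at 359.7, 403 and 197 against 84.6, 75.8 and 52.8. FGB was at 43.0, 76.6 and 62.9 against 14.1, 12.8 and 11.9, and APOH at 329.7, 338 and 287 against 49.0, 43.6 and 43.3. No library of one class reached the range of the other for any of the 5, which is what the rule selects.

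**Figure D1:**
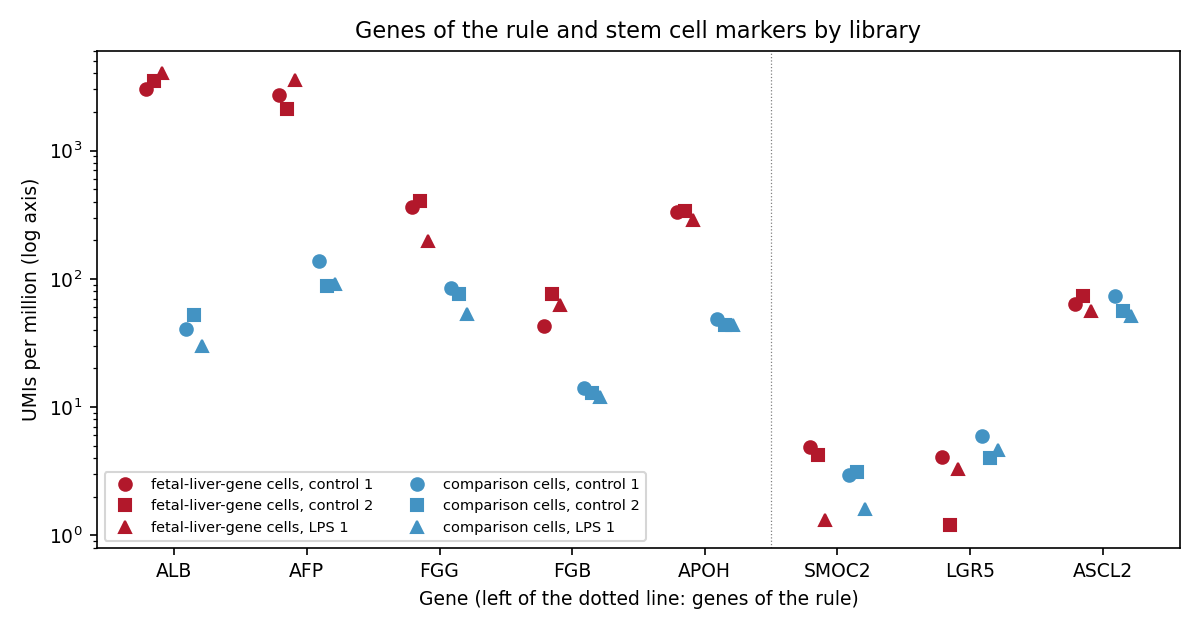
Counts per 1000000 UMIs (CPM) (log axis) of the 5 genes of the rule, left of the dotted line, and of 3 stem cell markers, right of it, in fetal-liver-gene cells (red) and comparison cells (blue). Each point is 1 library; ALB ran from 3009.9 to 4001 in the red points and from 29.7 to 52.2 in the blue, while the points of SMOC2, LGR5 and ASCL2 overlap.

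Each gene was also read in cells that it had not chosen. With ALB left out, the other 4 genes chose 261, 194 and 246 cells, in which ALB was 23.4-, 25.5- and 38.9-fold higher than in the remaining cells under the HT29-line limit. AFP, left out in turn, was 8.56-, 13.0- and 13.3-fold higher. The other 3 genes differed less, with mean folds over the 3 libraries of 5.32 ± 0.699 (SD) for APOH, 3.71 ± 1.09 for FGB and 2.69 ± 0.675 for FGG. The folds were largest for ALB and AFP. As the 5 genes were grouped with earlier results of these data known, the folds are a description. They are not independent evidence that the genes mark the same cells.

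Co-expression within single cells was partial. UMIs of at least 2 of the 5 genes were found in 86.8%, 91.9% and 83.2% of fetal-liver-gene cells, and of all 5 in 6.72%, 7.82% and 8.11%. In comparison cells, which were not selected on the sum, these shares were 21.5%, 16.3% and 12.2%, and 0.230%, 0.0512% and 0.0770%, so the higher shares describe the rule and were not tested. Both ALB and AFP reached 0.1% of UMIs in 98 of 372, 98 of 307 and 129 of 333 cells. ALB alone did so in 75, 87 and 61 cells and AFP alone in 147, 80 and 130. Across cells of 1 library, the share on ALB and that on AFP had Pearson correlations of 0.06, 0.19 and -0.11 (372, 307 and 333 cells), a description only, since the cells share a library and were selected on the sum of both.

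The summed share ran from the limit to far above it, with medians of 0.378%, 0.374% and 0.470% and maxima of 7.17%, 8.37% and 6.10%. At or above 2% were 23, 21 and 26 cells. Cells from 0.2 to 0.25% (73, 55 and 56 cells) had ALB at 483, 603 and 504 CPM and AFP at 1018, 989 and 1375, and cells from 0.15 to 0.2% (123, 104 and 82 cells) had ALB at 315, 492 and 264 and AFP at 793, 684 and 878. Outside the rule, TTR stood at 653, 728 and 694 just inside and at 630.1, 545 and 586 just outside. ITIH2 stood at 110, 67.3 and 66.3 just inside and at 57.8, 35.7 and 82.0 just outside, higher inside in both controls and lower in the LPS library. SMOC2 was higher inside in all 3 libraries, at 6.01, 9.18 and 8.84 CPM against 2.46, 1.88 and 3.04, from 3, 3 and 2 UMIs inside and 2, 1 and 1 outside.

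For cells chosen by these 5 genes, a stem cell label was not borne out by the markers. The study, which grouped cells by clustering, reported AFP and ALB in a portion of its stem-like cluster and also in a proliferating group. Those clusters were not rebuilt here. SMOC2, a secreted matrix protein of crypt stem cells, stood at 4.87, 4.19 and 1.32 CPM in fetal-liver-gene cells, from 12, 7 and 2 UMIs, and at 2.94, 3.14 and 1.61 in comparison cells. LGR5, the R-spondin receptor, stood at 4.06, 1.20 and 3.31 against 5.96, 4.03 and 4.64. SMOC2 was higher in fetal-liver-gene cells in both controls and lower in the LPS library. LGR5 was lower in all 3 libraries, from 17 UMIs against 311 in all, a ratio of 0.604 with a counting interval of 0.347 to 0.982. A SMOC2 UMI was found in 2.69%, 2.28% and 0.300% of fetal-liver-gene cells against 1.46%, 1.33% and 0.590% of comparison cells and 0.746%, 0.367% and 0.859% of cells at or above the HT29-line limit, whose median depths were 5519.5, 3868 and 3840 UMIs. After thinning every cell to 1500 UMIs, with the classes kept, these shares were 0.806%, 0 and 0.300%, against 0.562%, 0.512% and 0.257%, and 0.249%, 0.0917% and 0.215%. ASCL2, a stem cell transcription factor, stood at 64.1, 73.0 and 56.3 against 72.8, 55.8 and 51.4. By edgeR's quasi-likelihood test with Benjamini-Hochberg adjustment over all genes tested, the log2 fold change was 0.43 ± 0.37 (SE, adjusted p = 0.674) for SMOC2, -0.79 ± 0.34 (adjusted p = 0.272) for LGR5 and 0.05 ± 0.11 (adjusted p = 0.901) for ASCL2. In the fit on thinned counts the rule was applied again, which chose 1286 cells in place of 1012. The values there were -0.13 for SMOC2 and 0.08 for LGR5, so both depth and the chosen cells differed. Without control 2 the value of ASCL2 was -0.11. No direction is therefore given for these 3 genes in the fit. The cells are therefore named here by their fetal liver genes and not as stem cells.

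Outside the rule, the test asked which of 13543 genes differed between fetal-liver-gene and comparison cells, summed by library and with the library as a block. It called 243 genes higher (1.79% of those tested) and 293 lower (2.16%), together 3.96%. At an unadjusted p under 0.05, edgeR had 966 of the 13543 genes higher and 1036 lower, the background for list counts at that threshold. DESeq2 called 126 higher (1.13%) and 85 lower (0.76%). The 3 libraries of one class lay wholly above those of the other in 1351 genes with fetal-liver-gene cells higher (9.98%) and 845 with them lower (6.24%), so a lack of overlap in a single gene is common. The median log2 fold change of all tested genes was 0.00195.

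Most tested plasma protein genes were higher than in comparison cells. Of 47 further genes for liver-secreted plasma proteins in the files, 38 passed the filter on low counts, 29 were higher and none was lower, with a median log2 fold change of 0.81. DESeq2 called 24 higher and 0 lower. The filter passes a gene that is abundant in either class, so these counts cover only genes that could be tested. SERPINA3, ITIH4, F9, PLG, GC and HRG had no UMI in fetal-liver-gene cells, and SERPINA3 and F9 had none in comparison cells either. Fetal-liver-gene cells held 5647560 UMIs in all and comparison cells 62371451, so a rare gene is more easily missed in the former. Without the block 19 of the list were called.

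Among the carriers, TF, the iron carrier transferrin, stood at 41.4, 29.3 and 45.7 CPM against 5.30, 4.48 and 7.15 (log2 fold change 2.76 ± 0.15, edgeR adjusted p = 1.63e-10). SERPINA6, which carries cortisol, stood at 50.3, 52.6 and 89.4 against 10.0, 8.86 and 10.5 (2.61 ± 0.14). In both genes every library of fetal-liver-gene cells lay above every library of comparison cells. TTR, the carrier of thyroid hormone and of the retinol-binding protein, stood at 836, 585 and 933 against 391, 322 and 296 (1.16 ± 0.09, edgeR adjusted p = 7.4e-08), and RBP4, its partner, at 867, 812 and 661 against 447, 387 and 315 (0.99 ± 0.05). ORM1 and ORM2, the 2 near-identical genes of alpha-1-acid glycoprotein whose reads may be shared, rose by 2.30 ± 0.14 and 2.11 ± 0.16.

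Among inhibitors and fetal plasma proteins, A2M, the broad protease trap alpha-2-macroglobulin, was found as 95 UMIs in fetal-liver-gene cells and 46 in all comparison cells, which are 18.7, 19.1 and 11.3 against 1.06, 0.349 and 0.715 CPM (log2 fold change 4.46 ± 0.32, edgeR adjusted p = 1.65e-08). ITIH2, a hyaluronan-binding heavy chain, stood at 86.0, 88.5 and 60.9 against 22.0, 14.8 and 16.4 (2.10 ± 0.13). AHSG, the fetal plasma protein fetuin-A, stood at 1531, 1480.2 and 1879 against 793, 619 and 729.7 (1.15 ± 0.06). SERPINA1, the inhibitor alpha-1-antitrypsin, was abundant in both classes, at 3209, 2989.7 and 3495 against 1721, 1585 and 1525 (0.96 ± 0.05). The 2 classes did not overlap in any of these 4 genes. Also higher were FGA (the alpha chain of fibrinogen, 1.75 ± 0.19), F2 (prothrombin, 0.56 ± 0.07), and the clotting inhibitors SERPIND1 (heparin cofactor II, 1.70 ± 0.18) and PROC (protein C, 1.56 ± 0.17). F5 (factor V, 1.47 ± 0.15), which is not on the list, rose too.

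Apolipoproteins package lipids in both liver and gut. APOA1 stood at 8451, 7086 and 6496 CPM against 6052, 4590.4 and 3959 (0.57 ± 0.04, edgeR adjusted p = 6.85e-09), without overlap between the classes. APOE rose by 0.51 ± 0.04, APOA2 by 0.83 ± 0.09, APOB by 0.72 ± 0.07 and APOC1 by 0.68 ± 0.05 on the log2 scale.

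Of 26 hepatocyte enzyme and receptor genes, 13 were tested, 5 rose and none fell (median log2 fold change 0.89). At an unadjusted p under 0.05, 9 were higher and 0 lower, and DESeq2 called 4 higher and 0 lower. Among the 5 were TDO2, which breaks down tryptophan (1.73 ± 0.39), UGT2B7, a glucuronidation enzyme (1.19 ± 0.26), and the 2 chains of the asialoglycoprotein receptor, ASGR1 (0.89 ± 0.08) and ASGR2 (1.01 ± 0.12). Without control 1, TDO2 no longer passed (0.99, edgeR adjusted p = 0.420), nor did UGT2B7 without control 2 (1.02, adjusted p = 0.0540). ASGR2 stood at 47.0, 60.4 and 64.9 CPM against 27.4, 27.9 and 26.1, without overlap between the classes. The mature hepatocyte genes CYP3A4, CYP1A2, HPD, SLCO1B1, ADH1A and SDS had no UMI in fetal-liver-gene cells. CYP3A4, CYP1A2 and ADH1A had none in comparison cells either. Among 9 tested oncofetal genes 1 rose, GPC3, a heparan sulfate proteoglycan of fetal liver, at 629.8, 746 and 858 against 361, 396 and 435 (0.86 ± 0.05, edgeR adjusted p = 2.32e-09).

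**Figure D2:**
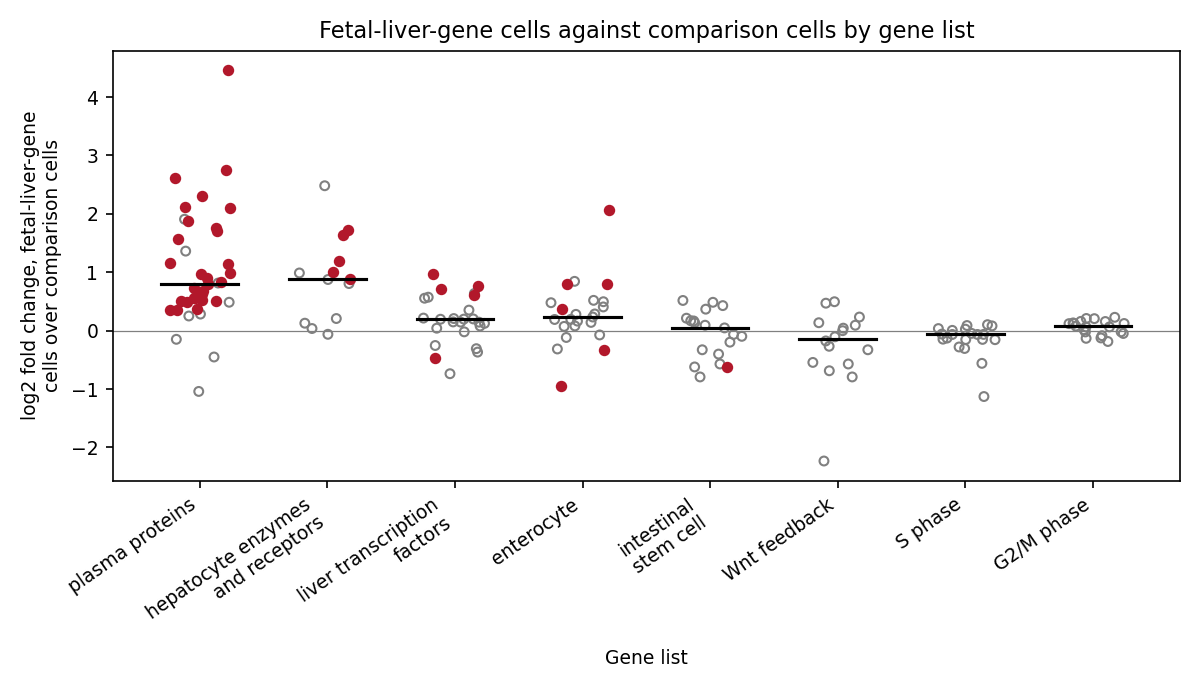
Log2 fold change of fetal-liver-gene cells over comparison cells (vertical axis) for the tested genes of 8 lists (horizontal axis), genes of the rule left out. Each circle is a gene, filled where edgeR's adjusted p was under 0.05, and the bar is the median of the list, 0.81 for plasma proteins and 0.05 for intestinal stem cell genes.

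Of 25 tested transcription factors of the liver, 4 rose and 1 fell (median log2 fold change 0.19). At an unadjusted p under 0.05, 7 were higher and 4 lower, and DESeq2 called 2 higher and 0 lower. PROX1, which sets hepatoblast fate, stood at 52.7, 55.6 and 58.3 CPM against 32.2, 26.5 and 22.2 (0.97 ± 0.13, edgeR adjusted p = 4.7e-05). HHEX, needed for the liver bud, rose by 0.76 ± 0.16, the nuclear receptor NR2F1 by 0.72 ± 0.17 and the pioneer factor FOXA1 by 0.62 ± 0.12. FOXA2, a relative of FOXA1, stood at 58.4, 63.4 and 37.1 against 67.0, 71.7 and 78.9 (-0.46 ± 0.13, edgeR adjusted p = 0.0461). HNF4A, at 148, 119.6 and 190.1 against 138, 108 and 138 (log2 fold change 0.19 ± 0.08), did not pass the test. Without control 2, FOXA1 (0.46, edgeR adjusted p = 0.0524) and HHEX (0.59, adjusted p = 0.0886) were no longer called, and without the LPS library NR2F1 (0.49, adjusted p = 0.230) and FOXA2 (-0.24, adjusted p = 0.421) were not.

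Of 19 tested stem cell markers edgeR called none higher and 1 lower (3 higher and 2 lower at an unadjusted p under 0.05, and none by DESeq2). The lower one was SLC12A2, an ion cotransporter, at 29.6, 20.3 and 33.8 CPM against 40.3, 37.7 and 47.2 (-0.61 ± 0.13). None of 16 Wnt feedback genes, 20 S phase genes and 20 G2/M genes was called in either direction by edgeR, with medians of -0.14, -0.07 and 0.07. At an unadjusted p under 0.05 there were 1 higher and 3 lower Wnt genes, no S phase gene and 1 higher G2/M gene, and DESeq2 called none. Among 23 enterocyte genes 4 rose and 2 fell by edgeR, 9 were higher and 3 lower at an unadjusted p under 0.05, and DESeq2 called 3 higher and 0 lower. Those that rose included ANPEP, a brush border peptidase (0.80 ± 0.13), SI (sucrase-isomaltase, 0.80 ± 0.14) and MTTP (the lipid loader of APOB, 0.37 ± 0.10). GNRH2, a gonadotropin-releasing hormone gene abundant in this culture, fell, from 566, 757 and 727 in comparison cells to 319, 257 and 549 (-0.95 ± 0.12, edgeR adjusted p = 3.3e-05), as did DPP4, another peptidase (-0.33 ± 0.08), though DESeq2 called neither. GNRH2 is counted on the enterocyte list here and below, although the study describes it as unique to a proliferating group of cells. A set of 14 genes that the study had picked on its control libraries for its stem-like cluster held 8 that rose here, among them ADH6, SORBS2 and SPINK1, and none that fell, and DESeq2 called 6. Another of the 8, OLFML3, was not called without control 1 (0.70, edgeR adjusted p = 0.0600), control 2 (0.45, adjusted p = 0.229) or the LPS library (0.61, adjusted p = 0.0632). As the set was picked on these samples, it is not independent evidence. PLA2G2A, a phospholipase in that set, stood at 51.5, 31.7 and 59.0 against 48.5, 63.0 and 61.5 and did not pass. It was called lower without control 1 (-0.53, edgeR adjusted p = 0.0469) and higher at a limit of 0.1% (0.58), so its direction depends on both. SI was not called without control 1 (0.73, adjusted p = 0.0518), nor MTTP without the LPS library (0.13, adjusted p = 0.637).

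Genes of the regenerating and fetal gut split. Of 15 tested, CTGF, a YAP target, rose at 151, 188 and 150.4 CPM against 75.0, 83.0 and 62.6 (1.10 ± 0.08), as did CLU, the chaperone clusterin (0.72 ± 0.07). Lower were 4 genes, among them ANKRD1, another YAP target (-0.89 ± 0.12), ANXA3 (-0.81 ± 0.14) and AREG, an EGF receptor ligand (-0.55 ± 0.09). DESeq2 called 2 higher and 3 lower. ID1, a target of BMP signaling, stood at 83.1, 99.9 and 117 against 122, 161 and 166 (-0.62 ± 0.08, edgeR adjusted p = 2.38e-05).

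By size of change among genes of at least 20 CPM, the 12 highest included TF, SERPINA6, ORM1, SULT1E1, ORM2, ITIH2, SERPIND1, PROC, CYP4F3, F5 and ERP27. SULT1E1, the estrogen sulfotransferase, stood at 21.5, 13.2 and 38.4 against 4.98, 3.98 and 5.00. The 12 lowest were PAGE4, FCGBP, IGFBP2, PRSS2, S100A9, CREG2, REG4, FXYD5, UCA1, FOLR1, CEACAM6 and WFDC2. IGFBP2, a binding protein of insulin-like growth factors, stood at 22.7, 22.7 and 35.1 against 71.8, 87.0 and 88.1 (-1.67 ± 0.12, edgeR adjusted p = 1.67e-08). PRSS2, a trypsinogen, was not called without control 1 (-0.62, edgeR adjusted p = 0.398). MUC2, the goblet cell mucin, was found as 3 UMIs in fetal-liver-gene cells and 315 in comparison cells, a ratio of 0.105 with a counting interval of 0.0216 to 0.310, and FCGBP, a mucus protein, fell by 2.70 on the log2 scale. Of 8 tested goblet cell genes these were the 2 called lower, and DESeq2 called 0. Of 9 tested HT29-line genes outside the rule, 3 fell, among them CEACAM6 and S100A4, and 1, TFF3, rose, with 2 lower and 1 higher by DESeq2. The 12 genes of that list summed to 1754, 1383 and 1194 CPM in fetal-liver-gene cells and 1553, 1296 and 1123 in comparison cells, with TFF3 the most abundant in both. In fetal-liver-gene cells IGFL4 was at 0. The part of HT29-line cells in these differences was not tested.

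Quality measures also differed. The median mitochondrial share was 4.43%, 5.86% and 5.92% in fetal-liver-gene cells against 3.65%, 4.19% and 4.48%, and ribosomal protein genes took 30.7%, 31.4% and 29.8% of UMIs against 34.4%, 34.6% and 34.3%. Their part in the gene differences was not tested, and with cells held to a mitochondrial share of 10% or less 430 of the 536 called genes were called again. The 10 markers of blood and vessel cells summed to 28.8, 26.3 and 33.8 CPM, of which CD68 gave a mean of 25.8, and PTPRC, HBG1, CD34 and KDR were among those at 0. The 8 stromal markers summed to 15.4, 22.7 and 19.9 CPM, led by COL1A1, with COL1A2, COL3A1 and DCN at 0. Of each list 3 genes were tested and none was called by edgeR or DESeq2, or at an unadjusted p under 0.05.

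Several genes outside the rule differed with the amount of the 5 genes, described here with no test. From cells under 0.1% through cells at 0.1 to 0.2%, 0.2 to 0.5%, 0.5 to 1%, 1 to 2% and 2% or more, SERPINA1 in control 2 stood at 1526, 2298, 2634, 2874, 3488 and 8073 CPM. In control 1 the ends of this range were 1657 and 6968 and in the LPS library 1466 and 7095. GPC3 went from 346 to 1093.5 in control 1, from 379.8 to 1652 in control 2 and from 422 to 1691 in the LPS library between the same ends. ITIH2 went from 18.7 to 250.1, from 13.1 to 157 and from 13.3 to 129, not at every step. PROX1 went from 31.0 to 172, from 24.3 to 142 and from 20.1 to 101.1. The top class was thus the highest of the 6 for SERPINA1, GPC3 and PROX1 in every library. SMOC2 had no UMI at 1% or more in any library. LGR5 stood at 21.4 in the top class of control 1, from 3 UMIs, against 5.81 in the lowest class. In control 2 the 2 LGR5 UMIs of fetal-liver-gene cells lay at 0.2 to 0.5%. PLA2G2A was most abundant just below the limit, at 82.9, 156 and 120.7 in cells at 0.1 to 0.2%, and stood at 21.4, 0 and 0 in the top class, from 3, 0 and 0 UMIs. ASCL2 had no such trend, at 72.6, 53.9 and 52.0 in the lowest class and 71.5, 42.7 and 27.6 in the highest, which held only 23, 21 and 26 cells.

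**Figure D3:**
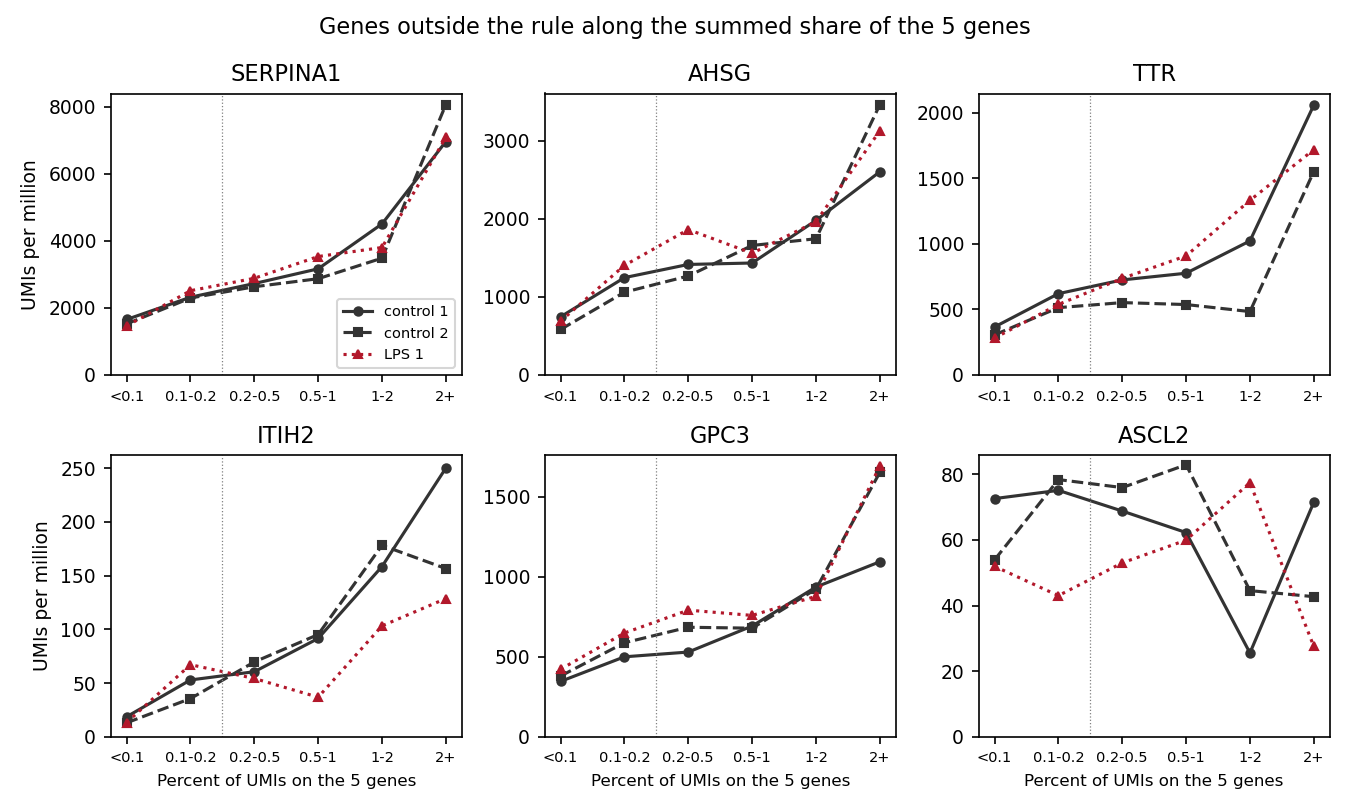
CPM (vertical axis) of 6 genes outside the rule in cells under the HT29-line limit, grouped by the percent of UMIs on the 5 genes (horizontal axis), with 1 line per library. Groups right of the dotted line are fetal-liver-gene cells; SERPINA1 ran from 1657 to 6968 in control 1, while ASCL2 showed no steady course.

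The cells differed among themselves. Split after inspection by the gene of the rule with most UMIs, 132, 154 and 132 cells were led by ALB, 175, 103 and 174 by AFP, 39, 23 and 5 by FGG, and 17, 12 and 9 by APOH, and 5 cells of control 2 were led by FGB. The values below describe this split and were not tested. APOA4, a lipid-transport protein of the gut, stood at 2657, 3085 and 3374 CPM in AFP-led cells and at 626, 279 and 703 in ALB-led cells. FABP1, the liver-type fatty acid binding protein, stood at 4414, 3137 and 4069 against 2238, 1531 and 2643, and TTR at 1250.1, 1145 and 1304.5 against 558, 325 and 600.5. These 3 genes were higher in AFP-led cells in every library. MDK, a growth factor of embryonic tissue, ran the other way, at 159.7, 300.3 and 191 in AFP-led cells against 574.5, 719 and 348 in ALB-led cells.

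APOH-led cells had the highest levels of GPC3 (1181, 1586 and 2053), PROX1 (129, 290.45 and 208) and PLA2G2A (279, 514 and 952) among the groups led by ALB, AFP, FGG and APOH. Of these 17, 12 and 9 cells, 14, 12 and 9 had a GPC3 UMI and 6, 6 and 2 a PROX1 UMI, but the 26, 23 and 32 UMIs of PLA2G2A lay in 4, 3 and 3 cells. SMOC2 was also highest there, at 32.2, 44.7 and 59.5 CPM, but from 3, 2 and 2 UMIs in 2, 2 and 1 cells, the last being the only fetal-liver-gene cell of the LPS library with SMOC2. FGG-led cells had the lowest TTR of these groups, at 87.5, 133 and 57.2, from 17, 13 and 1 UMIs.

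**Figure D4:**
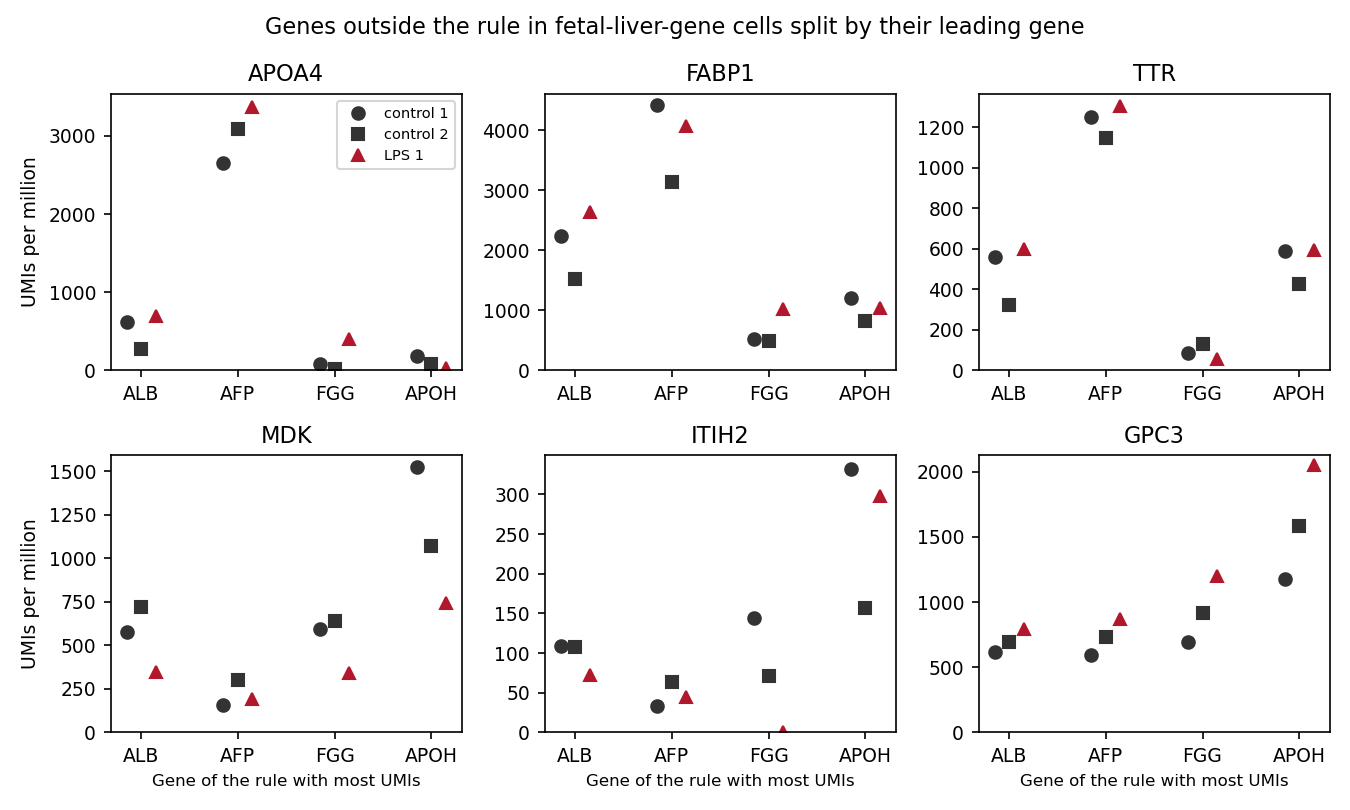
CPM (vertical axis) of 6 genes outside the rule in fetal-liver-gene cells led by ALB, AFP, FGG or APOH (horizontal axis), with 1 point per library. APOA4 lay between 2657 and 3374 in AFP-led cells and between 279 and 703 in ALB-led cells.

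Against 2 other kinds of Caco-2-line cells the profile differed more widely. The first were 283 cells with 0.1% or more of UMIs on DKK1, a secreted Wnt inhibitor, and ANKRD1. Of 8719 genes tested against them, 835 were higher in fetal-liver-gene cells (9.58%) and 755 lower (8.66%), or 513 and 424 without control 1. DESeq2 called 320 higher (3.67%) and 236 lower (2.71%). All 18 tested enterocyte genes were higher, as were 26 of 32 plasma protein genes, of which DESeq2 called 13 and 17. Of 13 tested stem cell genes 4 were lower and 0 higher (median -0.49), and of 18 S phase genes 6 were lower and 0 higher (median -0.60). At an unadjusted p under 0.05 these were 7 lower and 1 higher, and 9 lower and 0 higher, and DESeq2 called 0 stem cell genes and 1 S phase gene, lower. Of all 8719 genes, edgeR had 1394 higher and 1320 lower at that unadjusted threshold. Of the 4 stem cell genes, AXIN2 was not called without control 1 (-1.70, edgeR adjusted p = 0.113) or control 2 (-1.48, adjusted p = 0.0855), nor TNFRSF19 without control 1 (-0.51, adjusted p = 0.569). APOA4 stood at 1502, 1207 and 2083 CPM against 35.4, 148 and 60.5 (4.41 ± 0.26, edgeR adjusted p = 5.49e-10). SERPIND1, SULT1E1, SI and S100G, with 1, 1, 2 and 3 UMIs there, were also among the 6 highest, and SERPIND1 had a ratio of 56.0 with a counting interval of 9.92 to 2223. Of 18 liver transcription factors 6 were higher, among them HNF4A (1.52 ± 0.15), and 4 lower (2 and 3 by DESeq2). APOH of the rule was also abundant in the DKK1 and ANKRD1 high cells, at 259, 136 and 158 CPM, with a UMI in 47.1%, 30.8% and 41.8% of them against 48.9%, 55.4% and 44.4% of fetal-liver-gene cells. Lower were TAGLN, an actin-binding protein (13.0, 13.2 and 11.9 against 239, 108 and 179.4), PAGE4, SOCS2, IFITM3, KCNJ8 and OLR1, which had 1 UMI in fetal-liver-gene cells and 49 in the others, a ratio of 0.00649 with a counting interval of 0.000161 to 0.0379. ORM1 did not pass the test, at 28.0, 37.7 and 47.0 against 33.9, 33.6 and 34.6. Neither did ITIH2, with 452 UMIs against 100, a ratio of 1.44 with a counting interval of 1.16 to 1.80. Without control 1 ITIH2 was called higher (1.60, edgeR adjusted p = 0.00012).

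The second were 1929 cells with 0.2% or more of UMIs on APOA4 and FABP2, which mark absorptive enterocytes. Of 10603 genes tested, 1798 were higher in fetal-liver-gene cells (17% of those tested) and 2025 lower (19.1%), or 1152 and 1343 without control 1. DESeq2 called 750 higher (7.07%) and 960 lower (9.05%). All 18 S phase and all 20 G2/M genes tested were higher (medians 1.25 and 1.64). MKI67, the proliferation marker, stood at 79.1, 84.3 and 82.8 against 25.1, 26.9 and 23.0 (1.49 ± 0.12, edgeR adjusted p = 1.91e-07). Of 19 enterocyte genes 17 were lower and none higher, among them FABP1 (3065, 1977 and 3319 against 4767, 5295 and 4157) and GNRH2 (-2.51 ± 0.15), in a class that APOA4 and FABP2 had chosen. The plasma protein list split, with 14 of 33 higher and 11 lower. Its genes summed to 31384.7, 26232 and 29907 CPM in fetal-liver-gene cells against 33483.5, 31682 and 29364, lower in both controls and higher in the LPS library. ITIH2 stood at 86.0, 88.5 and 60.9 against 2.59, 2.48 and 3.83 (4.54 ± 0.20), ORM1 at 28.0, 37.7 and 47.0 against 0.648, 1.06 and 2.68, and TF was higher by 2.55 ± 0.23, whereas APOB (-1.04 ± 0.09), APOC3 (-1.40 ± 0.11) and TTR (-0.35 ± 0.11) were lower. Of 12 hepatocyte enzyme and receptor genes 3 were higher and 5 lower (median -0.52, with 2 and 2 by DESeq2), and the sum of that list was 575, 466 and 570 against 641, 618 and 577 CPM. Of 22 liver transcription factors 6 were higher and 5 lower (5 and 4 by DESeq2), with HNF4A at 148, 119.6 and 190.1 against 188, 179.4 and 215 (-0.58 ± 0.10, edgeR adjusted p = 0.000326). Of 14 tested stem cell genes 11 were higher, with ASCL2 by 0.51 ± 0.13 and SOX9 by 0.66 ± 0.11, whereas DESeq2 called 3. DESeq2 called 12 of the S phase and all 20 of the G2/M genes. Without control 2, ASCL2 was not called (0.34, edgeR adjusted p = 0.0604), and TTR was called neither without control 1 (-0.28, adjusted p = 0.171) nor without control 2 (-0.18, adjusted p = 0.267). Beside ITIH2 and ORM1, the 6 highest were ORM2, COL2A1, DKK1 and SLC7A2, and the 6 lowest were APOBEC1, AL365181.4, SLC2A5, GNRH2, MSLN and C11orf86. AFP of the rule stood at 285, 179 and 229 CPM in the APOA4 and FABP2 high cells. In all comparison cells, which include them, it stood at 138, 88.4 and 91.6. An AFP UMI was found in 51.8%, 34.6% and 39.2% of the APOA4 and FABP2 high cells.

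Few genes were called under LPS in fetal-liver-gene cells, but the test could miss most small changes. In counts simulated for it, 2.63% of genes changed 1.5-fold, 25.5% changed 2-fold and 83.9% changed 4-fold were recovered. Genes that were not called may therefore still differ. With 2 control libraries and 1 LPS library, the test had 1 residual degree of freedom and assumed that the LPS library varied as the controls did. Of 10418 genes, edgeR called 3 higher (0.0288%) and 2 lower (0.0192%), DESeq2 called none, and at an unadjusted p under 0.05 edgeR had 314 higher and 299 lower and DESeq2 10 and 20. SLC2A5, the fructose transporter, stood at 43.4 and 32.9 CPM in the controls and 96.1 under LPS (log2 fold change 1.28 ± 0.25, edgeR adjusted p = 0.00242). SLC2A3, a glucose transporter, went from 340.2 and 266 to 582 (0.90 ± 0.20), and GNRH2 from 319 and 257 to 549 (0.89 ± 0.20). FABP6, the ileal bile acid binding protein, stood at 9.73 and 34.7 in the controls and 1.99 under LPS (-3.38 ± 0.62, or -4.10 without control 1 and -2.31 without control 2), and WFDC2, a secreted protease inhibitor, at 37.3 and 27.5 against 9.94 (-1.76 ± 0.40). None of 33 plasma protein genes, 8 NF-kB targets and 2 Toll-like receptor pathway genes tested was called by edgeR or DESeq2, with 3 higher and 1 lower plasma protein gene and none of the others at an unadjusted p under 0.05. Over whole lists, the median log2 fold change was 0.39 for 21 tested enterocyte genes, of which 18 lay above 0. It was -0.49 for 20 tested G2/M genes, of which 1 lay above 0. TLR4 and LY96, the LPS receptor and its partner, had no UMI in fetal-liver-gene cells.

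Whether LPS acted differently on fetal-liver-gene cells than on comparison cells was tested by the interaction of class and LPS, again with 1 residual degree of freedom. Of 14898 genes, edgeR called 19 with a higher LPS difference in fetal-liver-gene cells (0.128%) and 3 with a lower one (0.0201%). At an unadjusted p under 0.05, edgeR had 365 of all genes higher and 348 lower. DESeq2 called none, with 20 and 13 at an unadjusted p under 0.05. Of the 19, 6 are on the enterocyte list of 24 tested genes and 3, APOA2, APOC3 and TTR, are on the plasma protein list of 39 tested genes, of which 14 were higher and 0 lower at an unadjusted p under 0.05. LCT, CDK17 and S100A9 had the highest differences but stayed under 20 CPM in fetal-liver-gene cells of every library. The median difference was 0.38 for the 24 enterocyte genes, of which 20 lay above 0. For 20 tested G2/M genes, CCNB1 among them, it was -0.39, and 2 lay above 0. The ratio of fetal-liver-gene cells to comparison cells for APOA4 was 0.994 and 1.07 in the controls and 1.66 under LPS (difference of log2 fold changes 0.71 ± 0.09, edgeR adjusted p = 2.39e-10). For GSTA1, a glutathione transferase, it was 1.51 and 2.31 against 4.04, and GSTA1 fell in comparison cells under LPS (-1.02 ± 0.16), where 12 of 15591 genes were called higher (0.077%) and 28 lower (0.18%). FABP1 went from 1.19 and 0.845 to 1.60. MDK, CCNB1 (cyclin B1) and BRCA2 went the other way, with ratios for MDK of 1.25 and 1.40 in the controls and 0.817 under LPS (-0.67 ± 0.13). The makeup of the cells also differed, since AFP-led cells, high in APOA4 and low in MDK, were 47.0% and 33.6% of fetal-liver-gene cells in the controls and 52.3% under LPS, and FGG-led cells were 39 and 23 against 5. Its part in the interaction was not tested.

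**Figure D5:**
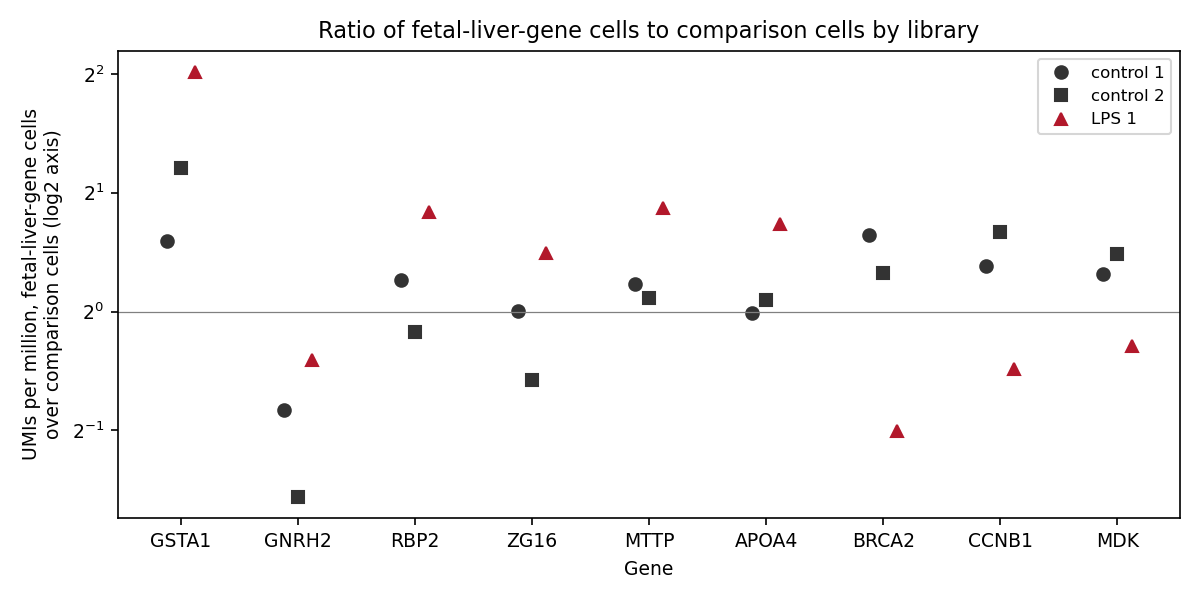
Ratio of CPM in fetal-liver-gene cells over comparison cells (log2 axis) for the 6 called genes with the highest and the 3 with the lowest interaction among those that reached 20 CPM in fetal-liver-gene cells of any library, with 1 point per library (controls black, LPS red). The LPS point lies above both controls for the first 6 genes, as for APOA4 at 1.66 against 0.994 and 1.07, and below both for BRCA2, CCNB1 and MDK.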

How the data were processed

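The authors deposited raw UMI count matrices of 33538 genes for 3 single-cell 3′ libraries, made with Cell Ranger 3.1.0 per the file headers (the submitters' notes name Cell Ranger, and the study names GRCh38 and lists a later Cell Ranger version than the headers). These counts were used as deposited. The files held 5811, 6495 and 6838 barcodes. Barcodes with at least 1500 UMIs, 700 genes and a mitochondrial share of at most 20% were kept (5093, 5307 and 5160), of which at most 8 were shared by any 2 libraries. Scrublet's automatic threshold marked 0, 0 and 1 cells and did not work as a caller, so doublets were kept and the 6% with the highest scores removed only as an alternative. UMIs were summed per library and class and tested with edgeR 4.0.16 (TMM, low-count filter, quasi-likelihood, two-sided, Benjamini-Hochberg over all genes tested, threshold 0.05). Sums of a library come from the same Transwell, so library was a block, except between LPS and control. Genes of the rule, and DKK1 and ANKRD1 or APOA4 and FABP2 in their comparisons, were not counted. DESeq2 1.42.0, other scaling, filters, limits, thinning to 1500 UMIs and leaving out libraries were alternatives. In counts simulated for the main comparison (13338 genes), 39.7% of genes changed 1.5-fold, 66.1% changed 2-fold and 98.4% changed 4-fold were recovered, and for the LPS comparison (10134 genes) 2.63%, 25.5% and 83.9%.

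The members and the gene lists were chosen with earlier results of these data known. Named were the marker genes, up to 8 genes of a list where its description needed them (more of the plasma, enterocyte and study lists were named, chosen after their values were seen), and the 12 highest and lowest called genes (6 in the other comparisons) with 1 direction in all libraries and at least 20 CPM (counts per 1000000 UMIs), or, for LPS, 20 CPM in fetal-liver-gene cells of any library. Other lists examined were Notch, with 0 of 15 tested genes called, cholesterol synthesis (0 of 14), stress (0 of 12), Paneth (1 of 3, PRSS2 lower), enteroendocrine (1 of 6, SCG5 higher), placental (1 of 4, PAGE4 lower), intestinal transcription factors (1 of 11, KLF4 lower), NF-kB (1 of 12, IER3 lower), Toll-like receptor (0 of 4) and BMP and TGF-beta genes (2 of 12, ID1 and TGFB1 lower). Several of these edgeR calls were lost with 1 library left out. SCG5 was lost without control 1 (adjusted p = 0.163) or control 2 (0.133), PRSS2 without control 1 (0.398), IER3 without control 2 (0.129), KLF4 without the LPS library (0.0985), and TGFB1 without control 1 (0.199) or the LPS library (0.178). Some genes that met these rules are not reported here.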

Additional observations from a re-analysis of the deposited data

Results flagged for a closer look

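Genes whose LPS difference was not the same in fetal-liver-gene cells and comparison cells by edgeR's interaction test were 19 with a higher and 3 with a lower difference. The differences of log2 fold changes were 1.18 for GSTA1, 0.79 for GNRH2, 0.77 for RBP2, 0.75 for ZG16, 0.71 for MTTP, 0.71 for APOA4, -1.50 for BRCA2, -0.99 for CCNB1 and -0.67 for MDK. They rest on 1 LPS library, and DESeq2 called none of them. Without control 2 the value of GNRH2 was 0.44 and that of ZG16 0.51, and without control 1 they were 1.17 and 1.09, with no test possible.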

How the results depend on the processing

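With DESeq2, 126 genes were higher and 85 lower in fetal-liver-gene than in comparison cells, all 211 of them among the 536 called by edgeR, and 320 and 236 against DKK1 and ANKRD1 high cells, 750 and 960 against APOA4 and FABP2 high cells, 0 and 0 for LPS, and 0 and 0 for the interaction. Thinned to 1500 UMIs, with the classes chosen again on the thinned counts, these counts were 142 and 182, 382 and 291, 805 and 1048, 0 and 0, and 6 and 1. Library pairs the classes because both come from the same Transwell. Without the replicate block 85 were higher and 28 lower, with 19 plasma protein genes higher, against 678 and 578 and 1394 and 1489 in the other class comparisons. No paired analysis was possible for LPS against control because the groups share only 1 replicate number. Without the low-count filter 516 genes were lower, with a limit of 0.1% 382 were higher, and with doublets removed 1 gene was lower under LPS. Leaving out each library in turn gave 176 to 248 higher and 233 to 257 lower genes and 25 to 26 plasma protein genes, 513 to 842 and 424 to 672 against DKK1 and ANKRD1 high cells, and 1152 to 1581 and 1343 to 1722 against APOA4 and FABP2 high cells, lowest without control 1 in both. Without either control the LPS comparisons had no residual degrees of freedom and gave values only, with the same sign for the genes named. The share was 8.53% in controls and 7.77% under LPS when thinned, 12.8% and 11.2% at a limit of 0.1%, and 2.97% and 3.80% at 0.4%, where LPS lay above both controls. The left-out fold of APOH was 4.46 when thinned, and 0 of 15 HT29-line cells at 1% or more passed.

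The sign turned for LGR5 (0.085 thinned), SMOC2 (-0.13 thinned, -0.11 at a limit of 0.4%), PLA2G2A (0.45 thinned, 0.58 at 0.1%), ORM1 against DKK1 and ANKRD1 high cells (-0.68 thinned), and ASCL2, which was -0.00490 with doublets removed, -0.13 at a limit of 0.4%, -0.022 at an HT29-line limit of 0.05%, and -0.11 to 0.22 with 1 library left out. The cause was not tested. The values of SMOC2 and LGR5 rest on 21 and 17 UMIs in all fetal-liver-gene cells.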
